A study of Mus musculus with 3 samples.

Results

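The genes described are 36 genes of MYC and of ribosome assembly, taken by symbol from a deposited table of 17796 genes that holds all 36 of them. They were chosen for their known roles: Myc, its relative Mycn and its partner Max, and 33 genes whose products transcribe ribosomal RNA or build the ribosome in the nucleolus. The RNA came from spleen T cells of C57BL/6 mice after 3 days of stimulation in the dish by plate-bound anti-CD3 (2 ug/ml), anti-CD28 (5 ug/ml) and interleukin 2 (100 IU/ml), and its polyadenylated part was sequenced. The Old + Fumarate library came from mice of 24 months given fumarate, a metabolite of the tricarboxylic acid cycle, at 10 mg/kg, dosed 3 times weekly over 2 months. The Old library came from mice of 24 months given vehicle on that schedule, and the Young library from mice of 2 months that are also labelled vehicle. The labels do not say whether 24 months was the age at the start or at the end of dosing, or whether a library pools several mice. Each group has 1 library, so no difference could be tested against the spread between mice.

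MYC is a transcription factor that T cells switch on within hours of antigen receptor signalling. It binds DNA as a pair with MAX, most tightly at the letters CACGTG, the E-box, and drives growth largely through genes for ribosome production. N-MYC, the product of Mycn, pairs with MAX in the same way and is best known from the embryo, from neuroblastoma and from blood progenitors. Ribosome production begins in the nucleolus, where RNA polymerase I copies ribosomal DNA, small nucleolar ribonucleoproteins (snoRNPs) modify the transcript, and assembly factors fold and cut it into the small (40S) and large (60S) subunits.

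Levels are given in CPM, where each library sums to 1000000, and differences are log2 ratios of CPM + 1. A gene is counted as higher or lower when it lay past 1.5-fold on that scale. The 95% intervals belong to the log2 ratio of plain CPM, rest on estimated read numbers, and take in counting error but no other spread. Depth was estimated at 13900000 reads for Old + Fumarate, 17300000 for Old and 41000000 for Young. All 15 T cell identity genes looked up, such as Cd3e and Lck, were at 77.1 CPM or more in every library. Markers of other blood cells differed between the libraries. The 13 erythroid and platelet markers summed to 138 CPM in Old + Fumarate, 1331 CPM in Old and 10.2 CPM in Young, and the 9 basophil and mast cell markers to 98.2, 513 and 6.25 CPM in the same order of libraries. In bulk RNA, fewer cells of a type and less RNA per cell cannot be told apart.

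Sequences are shown first for the genes that the values turn on: the DNA in front of Mycn, the one member whose level differed many-fold, and the E-boxes of the members that carry one. RefSeq (GRCm38.p6) gives a window from 250 bases before to 50 bases after the start for 30 of the 36 members. Starts and distances are those of RefSeq and can differ from the listed gene positions. The listed Mycn gene reaches base 12941914, so part of the 250 bases shown for it lies inside that gene. The 250 bases in front of Mycn, chr12:12941837-12942086 on the minus strand, hold no CACGTG and hold TTTNGCGC on either strand 3 times, in capitals, 183 to 161 bases before the start, with 2 of the 3 overlapping. These are letters of the kind bound by E2F cell cycle factors, and the motif was looked up with the values known.
Mycn: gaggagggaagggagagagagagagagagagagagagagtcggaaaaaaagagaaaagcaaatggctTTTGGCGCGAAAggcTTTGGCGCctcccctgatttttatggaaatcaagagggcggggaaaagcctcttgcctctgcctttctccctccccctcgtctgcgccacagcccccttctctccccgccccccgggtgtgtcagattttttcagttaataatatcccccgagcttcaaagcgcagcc

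TTTNGCGC stood in a window of 4 of the 30 members (Mycn, Ncl, Nop2 and Tsr1), or 13.3%, against 3.22% of the 7115 protein-coding genes with a window and a mean of at least 10 CPM. CACGTG, which reads the same on both strands, stood in a window of 7 of the 30 members, or 23.3%, against 12.5% of those 7115 genes. The 7 sites follow with the E-box in capitals and up to 10 bases on each side.
Max, chr12:76962236-76962261 on the minus strand, E-box from 3 bases before the start: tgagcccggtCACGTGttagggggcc
Nop2, chr6:125131813-125131838 on the plus strand, E-box from 60 bases before the start: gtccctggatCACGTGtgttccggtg
Pes1, chr11:3963967-3963992 on the plus strand, E-box from base 3 after the start: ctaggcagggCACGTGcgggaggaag
Wdr43, chr17:71616222-71616247 on the plus strand, E-box from base 18 after the start: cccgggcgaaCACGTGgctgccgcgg
Tsr1, chr11:74898094-74898119 on the plus strand, E-box from base 25 after the start: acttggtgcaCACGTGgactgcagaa
Utp20, chr10:88826765-88826787 on the minus strand, E-box from base 38 after the start: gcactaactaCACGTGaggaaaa
Mybbp1a, chr11:72441357-72441376 on the plus strand, E-box from base 41 after the start: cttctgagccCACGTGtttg

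In 6 of the 7 the E-box lies at most 41 bases from the start, either across it or just behind it, and in Nop2 it lies 60 bases in front. At the deposited scaling the 7 genes did not share a direction in the values below. With Old set against Young, Max was lower, Nop2 and Tsr1 were slightly higher, and Pes1, Wdr43, Mybbp1a and Utp20 were nearly level. With libraries scaled to the T cell identity genes, as described below, Max was at −0.12 in that comparison. The other E-box genes then lay above 0, from 0.33 (Mybbp1a) to 0.68 (Tsr1). A match of letters is a description of these windows and no evidence of binding.

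Mycn stood apart from every other member. It was at 32.1 CPM in Old + Fumarate, 58.9 CPM in Old and 1.73 CPM in Young, which corresponds to about 445, 1017 and 71 reads in that order of libraries. Both aged libraries were thus far above the young one, and the fumarate library was lower than the aged vehicle library. Old over Young gave a log2 ratio of 4.45 (interval 4.74 to 5.46), which placed Mycn 105th from the top of all 17796 genes, and the plain CPM ratio was 34.0. Old + Fumarate over Young gave 3.60 (interval 3.85 to 4.60), 35th from the top, with a plain ratio of 18.5. Old + Fumarate over Old gave −0.85 (interval −1.04 to −0.71), a plain ratio of 0.545. The size of the first 2 ratios depends on the added constant: with 0.1 CPM they were 5.01 and 4.14, and with 5 CPM 3.25 and 2.46. Mycn lies at chr12:12936093-12941914 and overlaps no other listed gene on the opposite strand.

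Like Mycn, the erythroid and platelet markers and the basophil and mast cell markers summed highest in Old and lowest in Young. The CPM ratio of Old + Fumarate over Old was 0.545 for Mycn, 0.104 for the erythroid and platelet markers, 0.192 for the basophil and mast cell markers, 0.883 for 5 NK cell markers and 0.558 for 9 macrophage and monocyte markers, a sum that Ctss dominates in Old + Fumarate. The NK cell sum was 49.2 CPM in Old + Fumarate, 55.7 CPM in Old and 4.93 CPM in Young. It did not follow Mycn from gene to gene, since 3 of the 5 NK cell markers were higher in Old + Fumarate than in Old. Gzma (granzyme A), the largest of them in both aged libraries, was at 31.0 CPM in Old + Fumarate, 30.2 CPM in Old and 0.537 CPM in Young. Which cells the Gzma RNA came from was not tested. The macrophage and monocyte sum was 59.6 CPM in Old + Fumarate, 107 CPM in Old and 105 CPM in Young, most of it in Old + Fumarate and in Young from Ctss (cathepsin S), at 53.3 CPM in Old + Fumarate, 50.5 CPM in Old and 88.1 CPM in Young. The other 8 macrophage and monocyte markers summed to 6.28 CPM in Old + Fumarate, 56.3 CPM in Old and 16.8 CPM in Young, a ratio of Old + Fumarate over Old of 0.111. Of all 9, 7 were higher past 1.5-fold in Old over Young (median 1.22) and 8 lower in Old + Fumarate over Old (median −2.24). Over all listed genes, 16.1% were higher in the first comparison and 11.5% lower in the second. The 9 B cell markers summed to 16.7 CPM in Old + Fumarate, 16.9 CPM in Old and 6.56 CPM in Young. In Young, 2 of the 13 erythroid and platelet markers were listed at 0 and the highest was at 3.42 CPM. All 9 basophil and mast cell markers were above 0 in Young, the highest at 2.90 CPM. The part of such cells in the Mycn difference was not tested.

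**Figure D1:**
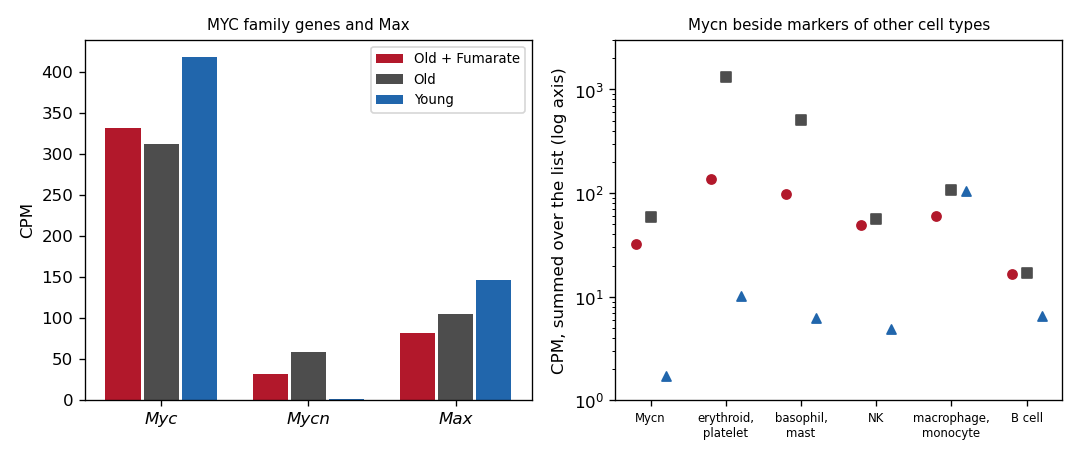
Left, CPM of Myc, Mycn and Max in the 3 libraries (bars, 1 library each, no error). Right, CPM of Mycn beside the summed CPM of marker lists for other cell types, which hold 5 to 13 genes each, on a log axis. Gzma makes up most of the NK sum in both aged libraries, and its cell of origin was not tested. Mycn was at 1.73 CPM in Young, and the erythroid, basophil, NK and B cell sums were also lowest in Young, while the macrophage sum, which Ctss dominates in Young, was not.

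Myc, the gene of the main T cell MYC protein, was at 332 CPM in Old + Fumarate, 313 CPM in Old and 418 CPM in Young. The 2 aged libraries lay close together and below the young one. The log2 ratio was −0.42 for Old over Young (interval −0.46 to −0.38), −0.33 for Old + Fumarate over Young (−0.38 to −0.29) and 0.09 for Old + Fumarate over Old (0.03 to 0.14), none of them past 1.5-fold. Added together, Myc and Mycn came to 364 CPM in Old + Fumarate, 372 CPM in Old and 420.2 CPM in Young, and Mycn made up 8.83% of that sum in Old + Fumarate, 15.9% in Old and 0.412% in Young. Per kilobase of merged exons, Mycn was at 9.75 CPM in Old + Fumarate, 17.9 CPM in Old and 0.526 CPM in Young, against 122, 115 and 154 CPM for Myc in the same order. Myc was therefore the higher of the pair in every library on the per-length scale. Mycl, the third gene of the family, was at 0.217 CPM in Old + Fumarate, 0.290 CPM in Old and 0.415 CPM in Young.

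Max, the obligate partner of MYC and N-MYC, was at 82.3 CPM in Old + Fumarate, 105 CPM in Old and 147 CPM in Young. The fumarate library was the lowest of the 3 and the young library the highest. Old + Fumarate over Young was −0.83 (interval −0.93 to −0.74), past 1.5-fold, while Old over Young was −0.48 (−0.56 to −0.40) and Old + Fumarate over Old −0.35 (−0.46 to −0.25). Max was the lowest of the 36 members in both comparisons with Young.

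The 33 genes of ribosome assembly were nearly level at the deposited scaling. In Old over Young, 1 of the 36 members was higher past 1.5-fold, which was Mycn, and none was lower. Over all listed genes 16.1% were higher and 5.91% lower in that comparison, and among the 9624 genes with a mean of at least 10 CPM, which takes in all 36 members, 11.7% were higher and 5.71% lower. In Old + Fumarate over Old none of the members was higher and 1, Mycn, was lower, against 2.10% higher and 11.5% lower of all listed genes, or 1.43% and 6.57% with a mean of at least 10 CPM. In Old + Fumarate over Young 1 member was higher, Mycn, and 1 lower, Max, against 8.89% higher and 6.00% lower of all listed genes, or 7.59% and 5.28% with the minimum. At the deposited scaling all 33 assembly genes lay within 1.5-fold in all 3 comparisons. Of all 36 members, 21 lay within 1.2-fold in Old over Young, 34 in Old + Fumarate over Old and 24 in Old + Fumarate over Young. The share of all genes within 1.2-fold was not counted, so these counts have no background. The lower and upper quartiles of the 9624 log2 ratios were −0.21 and 0.27 in Old over Young. They were −0.17 and 0.12 in Old + Fumarate over Old, and −0.19 and 0.20 in Old + Fumarate over Young. The comparisons share libraries and are not independent.

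The median log2 ratio of the 36 members was 0.06 for Old over Young, 0.07 for Old + Fumarate over Old and 0.09 for Old + Fumarate over Young. Over all listed genes it was 0.04, −0.04 and 0.00 in the same order of comparisons. The sign of the first median turned with TMM and upper-quartile scaling (−0.00 and −0.02) and that of the second with scaling to the T cell identity genes (−0.14). Without Mycn, the CPM ratios of Old over Young ran from 0.717 for Max to 1.30 for Bysl, those of Old + Fumarate over Old from 0.781 for Max to 1.17 for Gar1, and those of Old + Fumarate over Young from 0.560 for Max to 1.46 for Rrp12. The members together took 1.13% of all CPM in Old + Fumarate, 1.06% in Old and 1.14% in Young. The differences are small but often larger than counting error: the interval left out 0 for 30 of 36 members in Old over Young, 22 in Old + Fumarate over Old and 30 in Old + Fumarate over Young, against 72.9%, 49.2% and 64.7% of the 9624 genes. The spread between mice is unknown with 1 library a group, so these counts say nothing of differences between conditions.

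**Figure D2:**
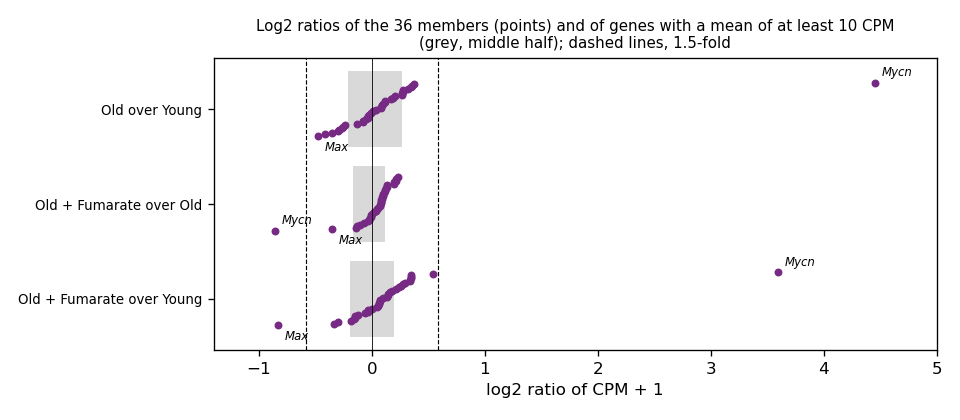
Log2 ratio of CPM + 1 (x axis) of each of the 36 members (points, stacked from the lowest to the highest ratio) in the 3 comparisons, over the range from the lower to the upper quartile of the 9624 genes with a mean of at least 10 CPM (grey). Apart from Mycn in all comparisons and Max in Old + Fumarate over Young, every member lies between the dashed lines at 1.5-fold.

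Libraries scaled by the median ratio of the 15 T cell identity genes to Young give another picture of the age comparison. These genes did not move together. At the deposited scaling their Old over Young ratios ran from −0.73 (Cd2) to 0.54 (Lcp2), with 4 above and 11 below 0 and a median of −0.36. The sign changes below depend on this choice of reference. That scaling adds 0.36 to every Old over Young ratio, takes 0.21 from every Old + Fumarate over Old ratio and adds 0.15 to every Old + Fumarate over Young ratio, before the added constant. With it 9 of the 36 members were higher past 1.5-fold in Old over Young, with a median of 0.41, and 2 in Old + Fumarate over Young, with a median of 0.24. Myc was then nearly level in Old over Young (−0.06) and turned to −0.12 in Old + Fumarate over Old. Max moved to −0.12 in Old over Young, −0.56 in Old + Fumarate over Old and −0.68 in Old + Fumarate over Young. Of the 36 members, 14 changed the sign of their ratio in Old over Young, 22 in Old + Fumarate over Old and 6 in Old + Fumarate over Young. With it 34 members lay above 0 in Old over Young, all but Myc and Max, and 33 lay below 0 in Old + Fumarate over Old, all but Npm1, Gar1 and Noc2l. No share of all listed genes was counted with this scaling, and its shift moves every gene. Its counts, here and for the lists below, therefore have no background beside them. The orders of the 3 libraries given for single genes in what follows are those of the deposited scaling.

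Of the 3 RNA polymerase I subunits, Polr1a encodes the largest subunit, Polr1b the second largest and Polr1e a subunit that works in initiation. Polr1a was at 125 CPM in Old + Fumarate, 127 CPM in Old and 139 CPM in Young. Polr1b was at 115 CPM in Old + Fumarate, 107 CPM in Old and 93.6 CPM in Young. Polr1e was at 29.7 CPM in Old + Fumarate, 32.9 CPM in Old and 31.1 CPM in Young. It was the lowest ribosome assembly member in CPM, though not per kilobase of merged exons. The 2 large subunits thus differed in opposite directions with age, by −0.13 for Polr1a and 0.19 for Polr1b, though with T cell identity scaling both ratios lie above 0. Their sum with Polr1e was 269.5 CPM in Old + Fumarate, 267 CPM in Old and 264 CPM in Young.

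The box C/D snoRNP methylates ribosomal RNA through Fbl (fibrillarin, the methyltransferase) on a scaffold of Nop56 and Nop58, and Rrp9 is the U3 snoRNP protein that directs early cleavage. Fbl was at 144 CPM in Old + Fumarate, 145 CPM in Old and 177 CPM in Young, so that both aged libraries shared one level below the young one, although Old over Young turns from −0.29 to 0.07 with T cell identity scaling. Nop56 was at 482 CPM in Old + Fumarate, 421 CPM in Old and 435 CPM in Young, and its ratio of 0.19 for Old + Fumarate over Old (interval 0.15 to 0.24) was among the 6 highest of the members and turns to −0.01 with T cell identity scaling. Nop58 was at 322 CPM in Old + Fumarate, 305 CPM in Old and 306 CPM in Young. Rrp9 had the opposite order to Fbl, at 122 CPM in both aged libraries and 101 CPM in Young. Of the box H/ACA proteins, which turn uridine into pseudouridine, Dkc1 (the enzyme) was at 232 CPM in Old + Fumarate, 217 CPM in Old and 223 CPM in Young. Nhp2 was at 249 CPM in Old + Fumarate, 237 CPM in Old and 210.1 CPM in Young. Gar1 was the member with the highest ratio of Old + Fumarate over Old, 0.23 (interval 0.13 to 0.33), at 119.6 CPM in Old + Fumarate, 102 CPM in Old and 123 CPM in Young. Its young and fumarate levels differed by −0.04, less than counting error (−0.12 to 0.04).

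Among the nucleolar chaperones and scaffold proteins, Ncl and Npm1 had the highest CPM of all members in every library. Ncl (nucleolin) binds nascent ribosomal RNA and was at 2639 CPM in Old + Fumarate, 2436 CPM in Old and 2992 CPM in Young. Npm1 (nucleophosmin), which shapes the outer layer of the nucleolus and carries late 60S particles, was at 1452 CPM in Old + Fumarate, 1254 CPM in Old and 1607 CPM in Young. Both genes were lowest in Old and highest in Young, with the fumarate library between them. Old over Young was −0.30 for Ncl (interval −0.31 to −0.28) and −0.36 for Npm1 (−0.38 to −0.33), which with those of Myc, Max, Fbl and Gar1 are the 6 lowest ratios among the members. Ncl and Npm1 turn above 0 with T cell identity scaling. Mybbp1a, a nucleolar protein that binds MYB, was at 770.2 CPM in Old + Fumarate, 719 CPM in Old and 737 CPM in Young. Nolc1, a scaffold that moves between nucleolus and Cajal body, was at 387 CPM in Old + Fumarate, 364 CPM in Old and 342 CPM in Young. Rrp1b was at 109.6 CPM in Old + Fumarate, 99.7 CPM in Old and 91.6 CPM in Young. Nolc1 and Rrp1b were thus lowest in Young, the opposite of Ncl and Npm1, and all 5 genes of this group were higher in Old + Fumarate than in Old at the deposited scaling, while with T cell identity scaling Ncl, Nolc1, Mybbp1a and Rrp1b turn below 0.

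For Npm1 the level itself is uncertain. Of the 36 members, 9 have at least 1 other listed gene with 90% identity or more over 300 transcript bases or more, 22 such genes in all, mostly processed pseudogenes. The 7 for Npm1 summed to 1385 CPM in Old + Fumarate, 1189.9 CPM in Old and 1549 CPM in Young, almost as much as Npm1 itself. Npm1 held 51.2%, 51.3% and 50.9% of the joint sum in that order of libraries, and the ratios of the joint sum were −0.37 for Old over Young and 0.21 for Old + Fumarate over Old, close to those of Npm1 alone. For Ddx18 the pseudogene Gm16433, 99.3% identical over 1984 bases, was at 60.1 CPM in Old + Fumarate, 62.1 CPM in Old and 70.4 CPM in Young. How the counting divided reads between a gene and its copies is not given in the sources used here. Genes on opposite strands may also share reads, since the strand setting is not given: 15 members overlap a listed gene on the other strand, among them Bysl with the cyclin gene Ccnd3, which was at 380.2 CPM in Old + Fumarate, 379.7 CPM in Old and 307 CPM in Young.

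Genes of 40S assembly had the highest ratios after Mycn in both comparisons with Young, Bysl in Old over Young and Rrp12 in Old + Fumarate over Young. Bysl, needed for late 40S maturation, was at 121 CPM in Old + Fumarate, 124 CPM in Old and 95.3 CPM in Young, a ratio of 0.37 for Old over Young (interval 0.30 to 0.45). Rrp12, which takes part in the export of both subunits, was at 169.6 CPM in Old + Fumarate, 148 CPM in Old and 116 CPM in Young. Its Old + Fumarate over Young ratio of 0.54 (interval 0.48 to 0.62) was the member just inside 1.5-fold, which is 0.58 on the log2 scale. Tsr1, a GTPase-like late 40S factor, was at 163 CPM in Old + Fumarate, 160.1 CPM in Old and 128 CPM in Young. These 3 genes were higher in both aged libraries than in Young, and of them Rrp12 alone also stood higher in Old + Fumarate than in Old by more than counting error (0.20), which turns to −0.01 with T cell identity scaling. Nop14, a processome protein, was lower in both aged libraries, at 148 CPM in Old + Fumarate, 135 CPM in Old and 161 CPM in Young, but with T cell identity scaling its Old over Young ratio of −0.25 turns to 0.11, the same side as Bysl, Rrp12 and Tsr1. Utp20 was at 135 CPM in Old + Fumarate, 137 CPM in Old and 126 CPM in Young. Wdr43 and Wdr75, 2 proteins that join the nascent transcript first, were nearly level at the deposited scaling. Wdr43 was at 263 CPM in Old + Fumarate, 255 CPM in Old and 253 CPM in Young, and Wdr75 at 127 CPM in Old + Fumarate, 121 CPM in Old and 127 CPM in Young. With T cell identity scaling their Old over Young ratios were 0.37 for Wdr43 and 0.28 for Wdr75.

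The 10 genes of 60S assembly had a median of 0.15 for Old over Young and 0.05 for Old + Fumarate over Old, and the second turns below 0 with T cell identity scaling. Pes1, Bop1 and Wdr12 form the PeBoW complex, which MYC is known to induce. Bop1 was at 192 CPM in Old + Fumarate, 194 CPM in Old and 151 CPM in Young, Wdr12 at 76.7, 82.5 and 68.4 CPM and Pes1 at 191, 186 and 182 CPM in the same order of libraries. All 3 were lowest in Young, with ratios of Old over Young of 0.36 for Bop1, 0.27 for Wdr12 and 0.03 for Pes1, the last inside counting error (−0.03 to 0.09) and turning below 0 with TMM, median-of-ratios and upper-quartile scaling. Nop2, an RNA methyltransferase, was at 197 CPM in Old + Fumarate, 186 CPM in Old and 154 CPM in Young. Nop16 was at 113 CPM in Old + Fumarate, 103 CPM in Old and 89.3 CPM in Young. Rrs1, which helps bring in the 5S particle, was at 132 CPM in Old + Fumarate, 122 CPM in Old and 113 CPM in Young. These 3 genes, too, were lowest in Young, and they were highest in Old + Fumarate at the deposited scaling but highest in Old with T cell identity scaling.

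Gnl3 (nucleostemin), a GTPase of dividing and stem cells, was at 159 CPM in Old + Fumarate, 174 CPM in Old and 144 CPM in Young, and with Mycn and Max it was 1 of only 3 members whose interval for Old + Fumarate over Old lay below 0 (−0.13, interval −0.21 to −0.05). Noc2l was at 339 CPM in Old + Fumarate, 293 CPM in Old and 347 CPM in Young. It was the lowest 60S gene in Old over Young, at −0.24, which turns to 0.12 with T cell identity scaling, and at 0.21 among the 6 highest members in Old + Fumarate over Old. Ebna1bp2 was at 203 CPM in Old + Fumarate, 193 CPM in Old and 196 CPM in Young. Ddx18, a DEAD-box helicase, was at 103 CPM in Old + Fumarate, 108 CPM in Old and 114 CPM in Young. The helicase Ddx21, which links RNA polymerase I with processing, was at 699 CPM in Old + Fumarate, 675 CPM in Old and 637 CPM in Young. The assembly factors thus did not all share the order of Ncl, Npm1 and Fbl, which were lower in both aged libraries than in Young at the deposited scaling.

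**Figure D3:**
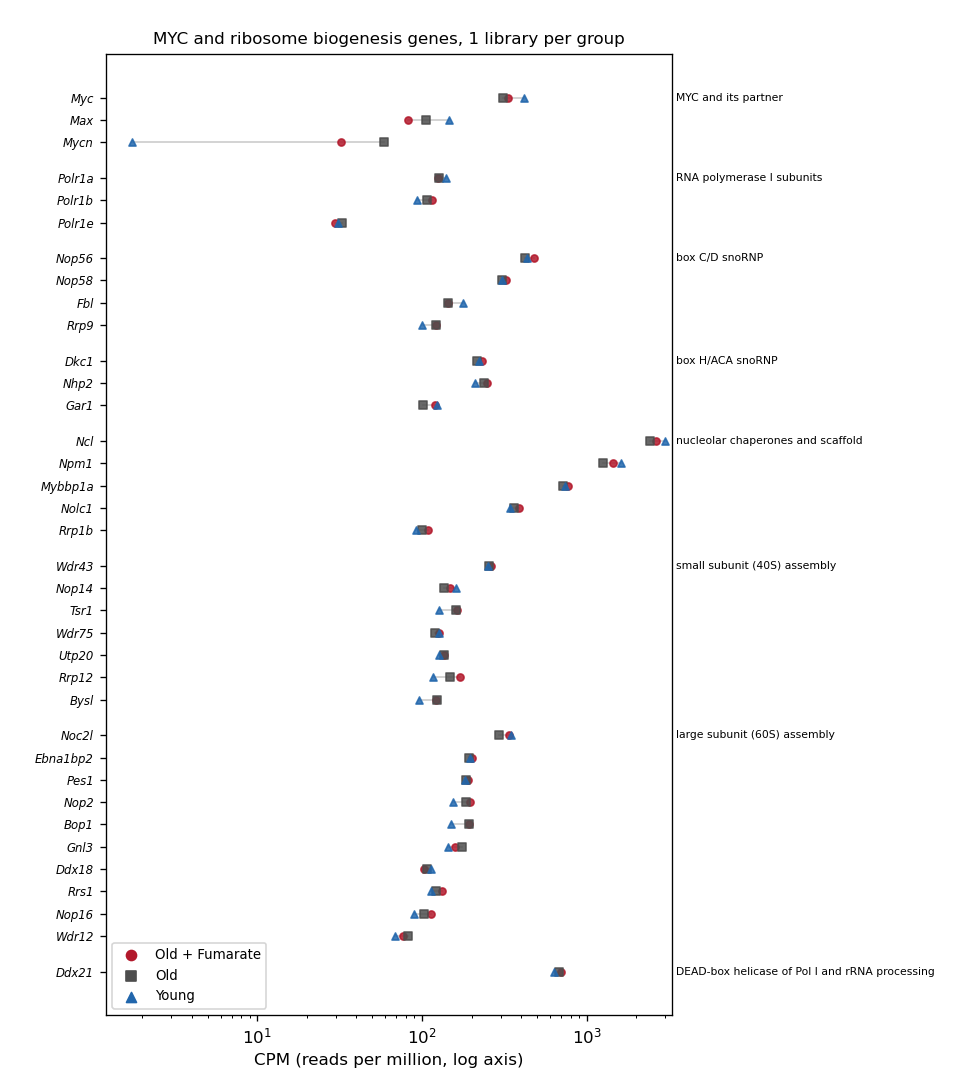
CPM on a log axis (x) of the 36 members (rows, grouped by role) in the 3 libraries, 1 point a library, with a grey line from the lowest to the highest. The Mycn points run from 1.73 to 58.9 CPM, while the points of the other members lie close together.

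Other genes of the same pathway, from lists that are not part of the 36, were also nearly level at the deposited scaling. There, none of 41 other genes listed for 40S assembly and none of 43 listed for 60S assembly lay past 1.5-fold in any of the 3 comparisons. The lists overlap: Nob1 stands in both, and Nop10 in the 40S and the snoRNP assembly lists. With T cell identity scaling 9 of the 41 and 3 of the 43 were higher in Old over Young, with medians of 0.42 and 0.35, and 1 of the 41 was higher in Old + Fumarate over Young. Their medians were 0.06 and −0.00 in Old over Young, where the first turns with TMM and upper-quartile scaling and the second with T cell identity scaling, and 0.05 and 0.05 in Old + Fumarate over Old, where both turn with T cell identity scaling. At the deposited scaling none of 17 other genes of the RNA polymerase I machinery lay past 1.5-fold either, against 1 higher in Old over Young with T cell identity scaling. They include Ubtf, which opens ribosomal DNA, at 247 CPM in Old + Fumarate, 243 CPM in Old and 223 CPM in Young, and Rrn3, the initiation factor, at 129, 131 and 112 CPM in the same order of libraries. The 12 other snoRNP assembly genes had no member past 1.5-fold and a median of −0.13 in Old over Young, which turns to 0.22 with T cell identity scaling. Of 22 RNA polymerase III genes, 1 was higher in Old over Young and in Old + Fumarate over Young: Polr3d, at 62.3 CPM in Old + Fumarate, 63.3 CPM in Old and 39.3 CPM in Young. With T cell identity scaling 5 of the 22 were higher in Old over Young and 1 was lower in Old + Fumarate over Old. At the deposited scaling 16.1% of all listed genes were higher and 5.91% lower in Old over Young. The shares were 2.1% and 11.5% in Old + Fumarate over Old, and 8.89% and 6% in Old + Fumarate over Young.

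The ribosomal protein genes, whose products the assembly line uses, stood at a lower level in both aged libraries at the deposited scaling, a direction that turns in Old over Young with T cell identity scaling. Of 81 cytosolic ribosomal protein genes, 76 had a ratio below 0 in Old over Young and 76 in Old + Fumarate over Young, with medians of −0.33 and −0.30. Of these genes 1 and 2 were lower past 1.5-fold, against 5.91% and 6% of all listed genes. Old + Fumarate over Old had a median of 0.02, with 42 ratios above and 39 below 0. Their sum was 39779 CPM in Old + Fumarate, 38586 CPM in Old and 49495 CPM in Young. Rps14 was at 619 CPM in Old + Fumarate, 621 CPM in Old and 881 CPM in Young, and the elongation factor gene Eef1a1 at 6230.2, 6381 and 9655 CPM in the same order, a ratio of −0.60 for Old over Young. With T cell identity scaling the median of the ribosomal protein genes turned to 0.03 in Old over Young and to −0.19 in Old + Fumarate over Old, and was −0.14 in Old + Fumarate over Young, where the median of the 36 members was 0.24.

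Of 38 known MYC targets outside the ribosome, 8 were lower past 1.5-fold in Old over Young and none higher (median −0.23), none lay past it in Old + Fumarate over Old (median 0.16), and 2 were lower in Old + Fumarate over Young (median −0.07). Each of these medians changes sign with T cell identity scaling (0.13, −0.05 and 0.08), with which 3 genes were higher and 1 lower in Old over Young and 2 higher and 1 lower in Old + Fumarate over Young. At the deposited scaling 16.1% of all listed genes were higher and 5.91% lower in Old over Young. The shares were 2.1% and 11.5% in Old + Fumarate over Old, and 8.89% and 6% in Old + Fumarate over Young. Eif4ebp1, a brake on translation initiation, was at 56.4 CPM in Old + Fumarate, 56.1 CPM in Old and 121 CPM in Young. Mthfd2, a folate enzyme of mitochondria, was at 208 CPM in Old + Fumarate, 172 CPM in Old and 304 CPM in Young, and Slc2a1, a glucose transporter, at 261, 183 and 339 CPM in the same order. The last 2 genes stood nearer to the young level in Old + Fumarate than in Old, and Eif4ebp1 did not. Odc1, the first enzyme of polyamine synthesis and a classical MYC target, was the highest of the list in Old over Young, at 1653 CPM in Old + Fumarate, 1606 CPM in Old and 1197 CPM in Young.

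**Figure D4:**
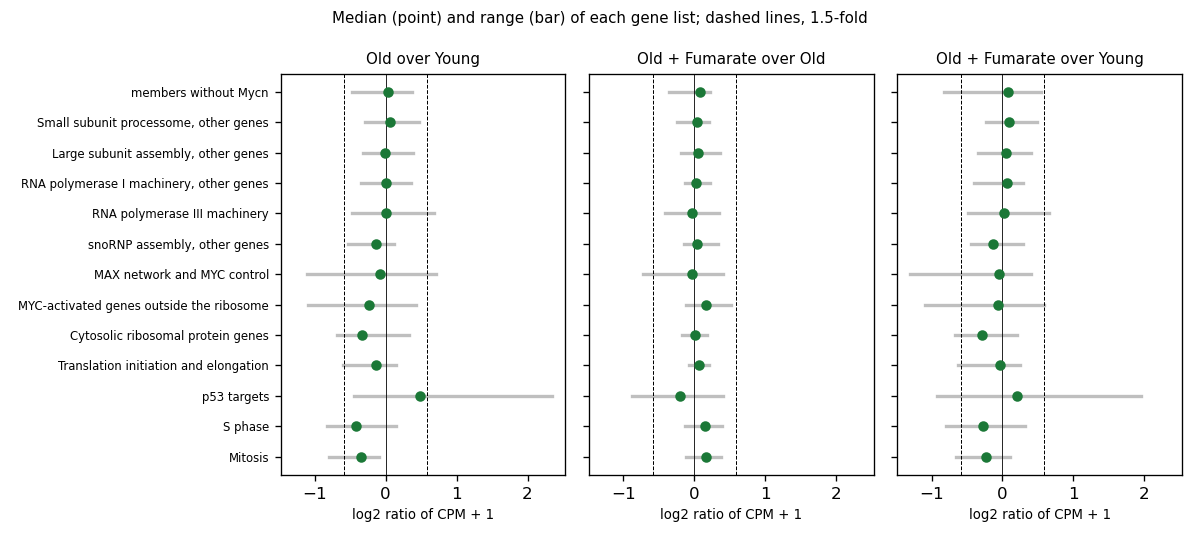
Log2 ratio of CPM + 1 (x axis) for the members without Mycn and for 12 other gene lists in the 3 comparisons, with the median of each list (point) and the range of its genes (bar). At the deposited scaling the small subunit, large subunit and RNA polymerase I lists have medians near 0 in every comparison. The snoRNP assembly list has a median of −0.13 in both Old over Young and Old + Fumarate over Young. The ribosomal protein, S phase and mitosis lists also lie below 0 in both comparisons with Young. With T cell identity scaling the ribosomal protein and mitosis medians turn above 0 in Old over Young. The small subunit, large subunit, RNA polymerase I and snoRNP assembly medians then move to 0.42, 0.35, 0.36 and 0.22 in that comparison.

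A list of 19 genes holds relatives, antagonists and cofactors of MYC and genes that protect or degrade it. Of these, 2 were higher and 2 lower in Old over Young, 1 was lower in Old + Fumarate over Old and 1 was lower in Old + Fumarate over Young. With T cell identity scaling 4 were higher and 1 lower in Old over Young. At the deposited scaling 16.1% of all listed genes were higher and 5.91% lower in Old over Young. The shares were 2.1% and 11.5% in Old + Fumarate over Old, and 8.89% and 6% in Old + Fumarate over Young. Mxd1, whose product competes with MYC for MAX, was at 44.2 CPM in Old + Fumarate, 54.8 CPM in Old and 33.3 CPM in Young. Mxd4, of the same family, was at 17.0 CPM in Old + Fumarate, 28.7 CPM in Old and 18.4 CPM in Young, and was the gene lower past 1.5-fold in Old + Fumarate over Old. Mxi1, another such antagonist, had the opposite order, at 55.8 CPM in Old + Fumarate, 41.7 CPM in Old and 63.1 CPM in Young. The antagonists therefore did not share a direction. Usp28, a deubiquitinase that protects MYC from the ligase FBXW7, was at 8.59 CPM in Old + Fumarate, 9.96 CPM in Old and 22.6 CPM in Young, lower past 1.5-fold in both comparisons with Young.

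Genes of growth and arrest that commonly accompany ribosome production were read in the same libraries. The 26 S phase genes had medians of −0.42 in Old over Young and −0.28 in Old + Fumarate over Young, with 4 and 1 lower past 1.5-fold. The 20 mitosis genes had medians of −0.35, which turns to 0.01 with T cell identity scaling, and −0.23, with 4 and 1 lower. With T cell identity scaling none of either list was lower past 1.5-fold in Old over Young. Old + Fumarate over Old had medians of 0.16 and 0.17 for these lists, with none past 1.5-fold, and both turn below 0 with T cell identity scaling. Among 16 genes, Trp53 and 15 targets of its product p53, which respond to stalled ribosome assembly among other signals, 7 were higher in Old over Young (median 0.48), 2 were lower in Old + Fumarate over Old (median −0.20) and 4 were higher and 1 lower in Old + Fumarate over Young (median 0.21). These medians kept their sign with T cell identity scaling, with 11 higher, 4 lower, and 6 higher and 1 lower in the same order of comparisons. At the deposited scaling 16.1% of all listed genes were higher and 5.91% lower in Old over Young. The shares were 2.1% and 11.5% in Old + Fumarate over Old, and 8.89% and 6% in Old + Fumarate over Young. Trp53 itself was at 159 CPM in Old + Fumarate, 162 CPM in Old and 143 CPM in Young. Cdkn1a, the cell cycle inhibitor p21, was at 644 CPM in Old + Fumarate, 710.2 CPM in Old and 344 CPM in Young.

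A feature of the members that their choice did not use is the intronic snoRNA, a guide RNA cut from the intron of a host gene. In GENCODE M21, 7 of the 36 members (19.4%) hold at least 1 snoRNA gene on the same strand, against 2.21% of the 8798 listed protein-coding genes with a mean of at least 10 CPM. Nop56 holds 5, Nop58 holds 4, Ncl, Wdr43 and Gnl3 hold 3 each, Tsr1 holds 2 and Dkc1 holds 1. None of these snoRNAs has a row of its own in the deposited table. Levels between genes compare only per length: per kilobase of merged exons, Npm1, Ncl and Nhp2 were the 3 highest members in every library, with Npm1 at 545 CPM in Old + Fumarate, 471 CPM in Old and 603 CPM in Young. Mycn was the lowest member per kilobase in Young, at 0.526 CPM, whereas in both aged libraries Wdr12 was the lowest, at 6.42 CPM in Old + Fumarate and 6.90 CPM in Old.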

How the data were processed

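Polyadenylated RNA of 3 libraries was sequenced, 1 per group, with groups taken from the titles. STAR, Partek and the mouse build mm10 are named per the submitters' processing notes, without roles; annotation release and strand setting are not stated. The deposited values are CPM, each column summing to 1000000, although the table is named for raw counts. Low values step by about 1 read, which gave the depths, yet within 0.02 reads only 70.9% (Old + Fumarate), 69.0% (Old) and 66.3% (Young) of genes under 1000 reads were whole, so no count model was fitted. A listed 0 could hide 3 reads, that is 0.217 CPM in Old + Fumarate, 0.174 CPM in Old and 0.0732 CPM in Young. Intervals are 95% Clopper-Pearson and, like these floors, cover counting error only.

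Libraries were compared by log2 ratios of CPM + 1 with a 1.5-fold limit. The members, gene lists and rules were chosen with earlier results of these data known. Named with all values are Myc, Mycn and Max, the 6 highest and 6 lowest members per comparison (widened to all 36), and up to 4 genes per list with the largest ratio and a mean of at least 10 CPM. Mycl, Ubtf, Odc1, Trp53, Gzma and Ctss were chosen after their values were seen, as were the Mycn promoter and the E-box sites, since 1 promoter (Nop2) met the planned rule. Gene ends were moved back by 1 base, after which 35 of 36 members matched GENCODE M21. BLAST 2.17.0 found the copies. The ratio and interval code was tested on simulated reads. Alternatives were 2 other added constants, 5 scalings, an expression minimum, a 2-fold limit and, added after seeing the data, members without a near-identical copy. Software was Python 3.11.15 with matplotlib 3.10.9, scipy 1.17.1, pandas 2.3.3 and numpy 2.4.6.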

Additional observations from a re-analysis of the deposited data

How the results depend on the processing

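The counts of members past 1.5-fold kept their values with other added constants, TMM, median-of-ratios, upper-quartile and reduced-total scaling, a mean of at least 10 CPM and the 27 members without a near-identical copy. With T cell identity scaling 9 members were higher in Old over Young and 2 in Old + Fumarate over Young, and the medians moved to 0.413 (Old over Young), −0.135 (Old + Fumarate over Old) and 0.239 (Old + Fumarate over Young). The share of all listed genes was not counted with that scaling. Upper-quartile scaling moved the Old over Young median to −0.0215. At a 2-fold limit 0 members were lower in Old + Fumarate over Old and 0 in Old + Fumarate over Young, since the limit is wider. The share of genes lower in Old + Fumarate over Old was 11.5% of all listed genes and 6.57% of the 9624 with a mean of at least 10 CPM. The cause was not tested. No paired analysis was possible because each group has 1 library, and for the same reason no library could be left out. The lowest member value rests on about 71 reads, that of Mycn in Young, and the size of the Mycn ratios over Young depends on the added constant. Spread between mice cannot be seen.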
